A study of Mus musculus with 24 samples.

Results

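The genes described here are 8 imprinted genes of mouse embryonic fibroblasts (MEFs): Snrpn, Snurf, Peg3, Igf2, H19, Cdkn1c, Dlk1 and Meg3. They were chosen by measured values, since all 8 are listed in the authors' deposited table of probes that differed between E4F1 knockout and control cells transformed with Ha-RasV12. They are 8 of 4414 genes that could be named on the array, and 48 of its 132488 tested probes, from 16 transcript accessions, report them. Of these 48 probes, 42 stand in at least 1 of the authors' 6 deposited tables. The comparison of knockout with control cells is therefore given below as a description of the chosen genes, with no test.

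E4F1 is a zinc finger protein that acts as a transcription factor and a ubiquitin ligase. The study profiled total RNA of 4 groups: E4F1 knockout p53-/- MEFs, control p53-/- MEFs, E4F1 knockout p53-/- MEFs carrying the activated Ras oncogene Ha-RasV12, and their Ha-RasV12 controls. All cells came from 13.5-day embryos of a mixed C57BL/6 and 129Sv/J background, all lacked p53, and all were taken 3 days after a retrovirus brought in the CRE recombinase. CRE removed the floxed E4f1 allele. The other allele was null in knockout cells and intact in controls, so that the controls were heterozygous (E4F1 +/-). Ha-RasV12 was also brought in by a retrovirus, and the sources used here do not say whether the cells were clones or pools. Each group had 3 biological replicates (A, B and C). A knockout and a control sample shared each array, with the dyes swapped on a second array, which gave 24 samples on 12 two-colour arrays. Values are the authors' normalised intensities on a log2 scale, averaged over the dye swap and over a gene's probes, and a difference of 1 on this scale is a 2-fold change. Errors are SDs over 3 replicates.

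Imprinted genes are read from the copy inherited from 1 parent, while the other copy is silenced by methylation and chromatin marks set in the germ line. Many act on fetal growth, and they lie in clusters under shared control elements. Snrpn, Snurf, Peg3, Igf2 and Dlk1 are expressed from the paternal copy, and H19, Cdkn1c and Meg3 from the maternal copy. In GRCm38.p6, Snrpn lies at chr7:59982495-60450177 and Snurf within it at chr7:59982495-60005199, in the Prader-Willi region. Peg3 lies at chr7:6703892-6730462. H19 (chr7:142575530-142578146) and Igf2 (chr7:142650768-142666816) share an imprinting control element, and Cdkn1c (chr7:143458339-143461059) belongs to the neighbouring Kcnq1 domain. Dlk1 (chr12:109452485-109463336) and Meg3 (chr12:109540996-109571729) form a separate cluster on chromosome 12.

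Promoter sequence from RefSeq (GRCm38.p6, 250 bases before to 50 after an annotated start) was at hand for 6 of the 8 genes, in 12 distinct windows. The 4 windows that hold a searched motif are given here, each 5′ to 3′ on the gene's strand. Capitals mark TGACGT, the core of sites bound by E4F1 and by the ATF/CREB family, and TGCCGC, the methylated motif read by the imprint-keeping factor ZFP57, each on either strand. TGACGT was taken up after the sequences had been seen.
Snrpn and Snurf, chr7:60005150-60005449, minus strand: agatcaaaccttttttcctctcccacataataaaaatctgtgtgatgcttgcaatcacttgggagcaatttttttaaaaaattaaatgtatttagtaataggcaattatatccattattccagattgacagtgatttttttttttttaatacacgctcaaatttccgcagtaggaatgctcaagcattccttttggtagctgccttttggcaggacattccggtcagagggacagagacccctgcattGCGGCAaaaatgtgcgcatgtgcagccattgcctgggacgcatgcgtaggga
Peg3, chr7:6730370-6730669, minus strand: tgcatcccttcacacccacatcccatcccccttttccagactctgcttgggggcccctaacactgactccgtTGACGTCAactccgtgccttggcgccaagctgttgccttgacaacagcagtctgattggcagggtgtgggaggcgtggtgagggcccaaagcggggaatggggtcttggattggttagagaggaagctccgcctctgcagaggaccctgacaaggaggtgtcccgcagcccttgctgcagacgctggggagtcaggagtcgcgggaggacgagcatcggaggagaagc
Igf2, chr7:142661222-142661521, minus strand: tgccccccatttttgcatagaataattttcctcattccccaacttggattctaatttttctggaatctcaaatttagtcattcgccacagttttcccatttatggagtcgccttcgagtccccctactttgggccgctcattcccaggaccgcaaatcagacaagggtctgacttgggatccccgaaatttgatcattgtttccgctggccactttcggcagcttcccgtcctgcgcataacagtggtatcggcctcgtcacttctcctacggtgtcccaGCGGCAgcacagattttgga
Meg3, chr12:109540746-109541045, plus strand: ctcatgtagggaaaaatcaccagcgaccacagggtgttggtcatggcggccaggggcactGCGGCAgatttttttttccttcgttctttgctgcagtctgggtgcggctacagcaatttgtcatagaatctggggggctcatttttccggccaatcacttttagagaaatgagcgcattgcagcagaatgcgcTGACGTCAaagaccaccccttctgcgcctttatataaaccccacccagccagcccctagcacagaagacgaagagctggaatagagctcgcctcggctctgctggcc

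The Snurf window is identical to 1 of the 4 Snrpn windows, because both proteins are read from transcripts with a common start. It holds TGCCGC at position -2 relative to the start, a motif found in 11.6% of 32851 promoters. The Peg3 window holds TGACGT on both strands, overlapping, from position -178, and so does the first Meg3 window, from position -57. TGACGT stands in 7.51% of promoters and in 2 of the 12 windows. Meg3 also holds TGCCGC at position -190, and 1 of the Igf2 windows at position 30, so that TGCCGC stands in 3 of the 12 windows. The motif GCCATNTT, a form of the YY1 motif, is in 6.05% of promoters and in 0 of the 12 windows. Such a match describes the letters only.

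E4f1 RNA was lower in knockout cells of both backgrounds, and this passed the test in Ha-RasV12 cells. The mean of 6 E4f1 probes was 0.78 ± 0.07 lower in p53-/- knockout cells and 1.27 ± 0.20 lower in Ha-RasV12 knockout cells, in 3 of 3 replicates each (limma, adjusted p = 0.305 and 0.00293). The place of the 6 probes relative to the floxed segment was not stated, so that this checks the labels only in part. Trp53, disrupted in all groups, differed by -0.04 ± 0.16 in p53-/- and by -0.32 ± 0.31 in Ha-RasV12 cells (limma, adjusted p = 1.0 and 0.334). Between 40.3% and 46.9% of probes in each sample were above background, taken as the 95th percentile of 5000 random control probes (6.24 to 7.13 on the log2 scale). The cells carried RNA of fibroblast genes, with Col3a1, the brightest named marker, at 10.77 to 14.25 over the 12 averaged samples. The fibroblast marker Dpt was near background in Ha-RasV12 cells (10 of 18 probe values above it in knockout cells, 11 of 18 in controls). The epithelial marker Epcam was above background in 33 of 36 probe values of Ha-RasV12 knockout cells and 28 of 36 of Ha-RasV12 controls. In p53-/- cells it was above background in 3 of 36 (knockout) and 0 of 36 (control). The epithelial marker Krt7 ran the other way in controls, with 1 of 18 in Ha-RasV12 and 9 of 18 in p53-/- cells. Krt19, a further epithelial marker, had 18 of 18 in every group. Across 42729 genes or unnamed transcripts, limma called 443 higher and 300 lower in Ha-RasV12 knockout cells (1.74% in all) and 4 in p53-/- knockout cells (0.00936%), where 1029 had an unadjusted p under 0.05. In bulk RNA, fewer cells of a kind and less RNA per cell cannot be told apart.

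In Ha-RasV12 MEFs the paternally expressed genes Snrpn, Snurf and Peg3 were several-fold higher in knockout cells in every replicate, while in p53-/- MEFs no replicate differed by more than 0.63. Snrpn encodes SmN, a spliceosome protein that is abundant in neurons. It stood at 10.49, 10.57 and 10.76 in Ha-RasV12 knockout cells, against 8.75, 7.07 and 6.83 in Ha-RasV12 controls (replicates A, B and C). The groups did not overlap, and control replicate A lay above the other two. The difference was 3.06 ± 1.17, or 8.32-fold on average, with single replicates from 3.32-fold to 15.3-fold. Among p53-/- cells, Snrpn stood at 10.82, 10.35 and 10.57 in knockout cells, against 10.67, 10.27 and 10.56 in controls. These groups overlapped, with a difference of 0.08 ± 0.07. Snurf, the small upstream reading frame of the same transcripts, stood at 9.63, 10.00 and 10.71 in Ha-RasV12 knockout cells, against 7.72, 6.82 and 6.83 in controls. In p53-/- cells Snurf stood at 10.34, 9.80 and 10.20 in knockout cells, against 10.25, 9.62 and 10.18 in controls. Its difference was 2.99 ± 1.00 in Ha-RasV12 cells and 0.10 ± 0.08 in p53-/- cells. Snrpn and Snurf probes can bind the same transcripts, so that their values are not separate measurements.

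Peg3 encodes a zinc finger protein tied to growth and maternal behaviour. It stood at 9.47, 8.33 and 8.81 in Ha-RasV12 knockout cells, against 7.29, 6.22 and 5.88 in Ha-RasV12 controls. All knockout replicates lay above all controls, by 2.41 ± 0.45 (5.30-fold). In p53-/- cells Peg3 ran the other way, at 9.37, 9.00 and 9.25 in knockout cells against 10.00, 9.37 and 9.38 in controls. It was lower by 0.63, 0.37 and 0.13 in replicates A, B and C and on 6 of 6 arrays, with knockout replicate A and control replicate B both at 9.37. Only 15 of 36 probe values of Peg3 were above background in Ha-RasV12 controls, against 36 of 36 in Ha-RasV12 knockout cells, and values at background compress a difference. For Snrpn and Snurf 15 of 18 control values each were above background.

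**Figure D1:**
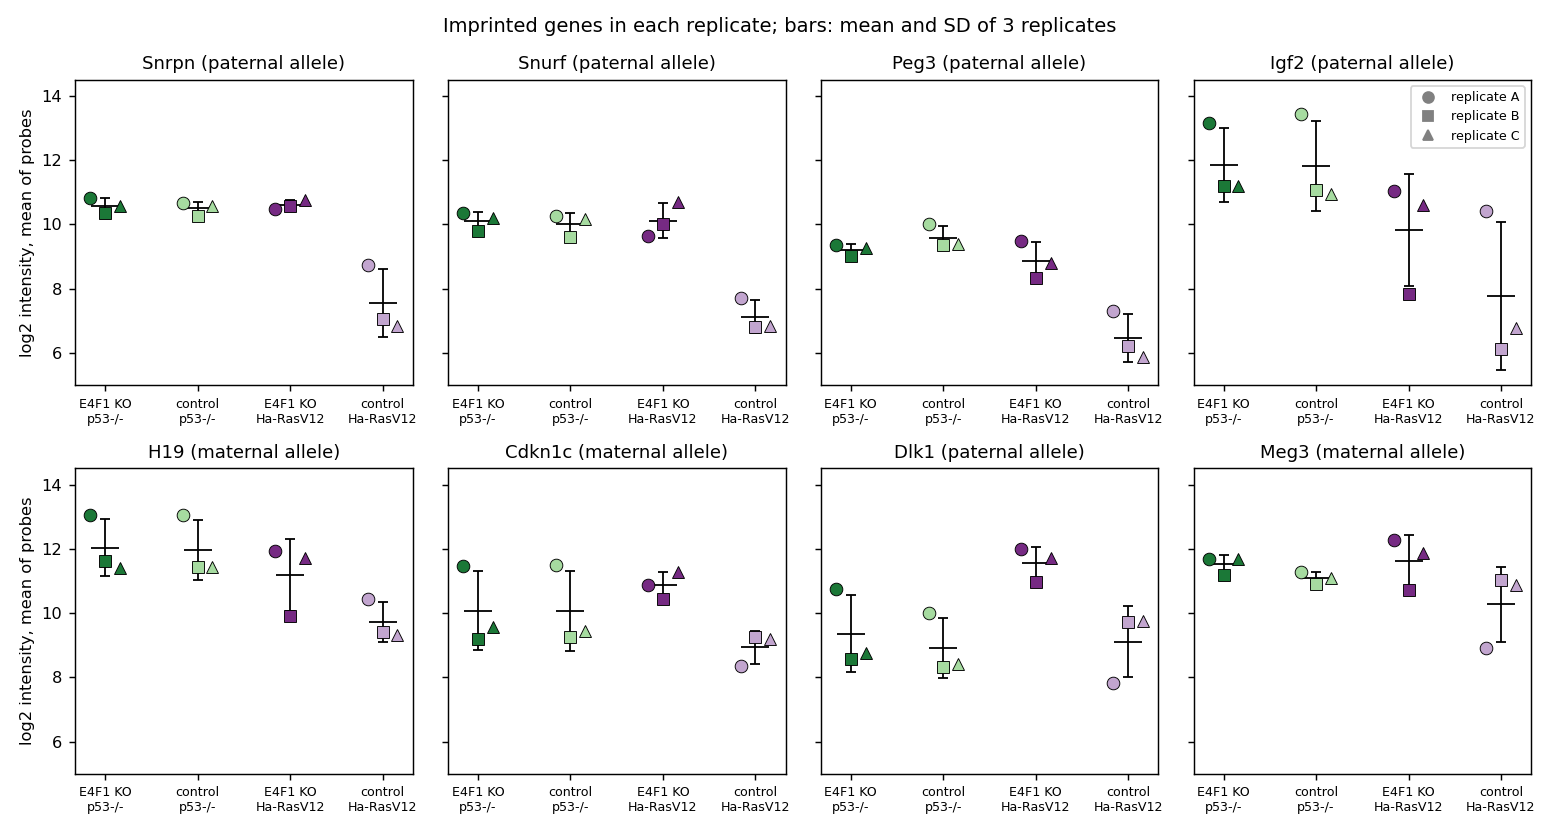
Log2 intensity (vertical axes, mean over a gene's probes) of the 8 imprinted genes in E4F1 knockout and control p53-/- MEFs and in knockout and control Ha-RasV12 MEFs, with 1 point per replicate and bars for mean and SD (n = 3). Snrpn, Snurf and Peg3 stand low in the Ha-RasV12 controls alone, with Snrpn at 6.83 to 8.75 there against 10.27 or more in the other groups.

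Igf2 and H19, which share their control element, were also higher in Ha-RasV12 knockout cells, though replicates differed widely. Igf2 encodes a fetal growth factor that signals through the IGF1 and insulin receptors. It stood at 11.04, 7.83 and 10.61 in Ha-RasV12 knockout cells, against 10.40, 6.12 and 6.78 in controls. The groups overlapped, since control replicate A lay above knockout replicate B. Within replicates the difference was 0.64, 1.71 and 3.83 (2.06 ± 1.62). Among p53-/- cells, Igf2 stood at 13.16, 11.18 and 11.19 in knockout cells, against 13.44, 11.07 and 10.94 in controls, a difference of 0.03 ± 0.28. H19 gives a non-coding RNA from the opposite parental copy. It stood at 11.92, 9.91 and 11.72 in Ha-RasV12 knockout cells, against 10.45, 9.40 and 9.31 in controls, and these groups overlapped. The difference was 1.47 ± 0.95 in Ha-RasV12 cells and 0.06 ± 0.12 in p53-/- cells, where H19 stood at 13.06, 11.63 and 11.41 in knockout cells against 13.04, 11.43 and 11.44 in controls. The paternally and the maternally expressed gene of this cluster were thus both higher on average in Ha-RasV12 knockout cells.

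Cdkn1c encodes p57, an inhibitor of cyclin-dependent kinases that restrains growth. It stood at 10.87, 10.45 and 11.29 in Ha-RasV12 knockout cells, against 8.35, 9.27 and 9.18 in Ha-RasV12 controls. The groups did not overlap, and the difference was 1.93 ± 0.68 (3.82-fold). In p53-/- cells it stood at 11.47, 9.20 and 9.56 in knockout cells, against 11.48, 9.25 and 9.45 in controls, a difference of 0.02 ± 0.08. Replicate A was high in both p53-/- groups.

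Dlk1 and Meg3 on chromosome 12 differed most in replicate A. Dlk1 encodes a membrane-bound and secreted relative of Notch ligands that holds back adipocyte differentiation. It stood at 11.98, 10.98 and 11.70 in Ha-RasV12 knockout cells, against 7.83, 9.73 and 9.75 in controls, with no overlap. The difference was 4.15 in replicate A, 1.26 in B and 1.94 in C (2.45 ± 1.51). Dlk1 in p53-/- cells stood at 10.74, 8.58 and 8.77 in knockout cells, against 10.00, 8.33 and 8.42 in controls. It was higher in 6 of 6 knockout arrays there, by 0.45 ± 0.26. Meg3 gives a maternally expressed non-coding RNA. It stood at 12.27, 10.71 and 11.88 in Ha-RasV12 knockout cells, against 8.91, 11.03 and 10.86 in controls, and the groups overlapped. Replicate A differed by 3.36 and C by 1.02, while B was lower in knockout cells by 0.32. Its mean difference was 1.35 ± 1.86, and 0.35 without replicate A. Meg3 in p53-/- cells stood at 11.68, 11.18 and 11.68 in knockout cells, against 11.27, 10.91 and 11.08 in controls, higher in 6 of 6 arrays by 0.42 ± 0.17.

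**Figure D2:**
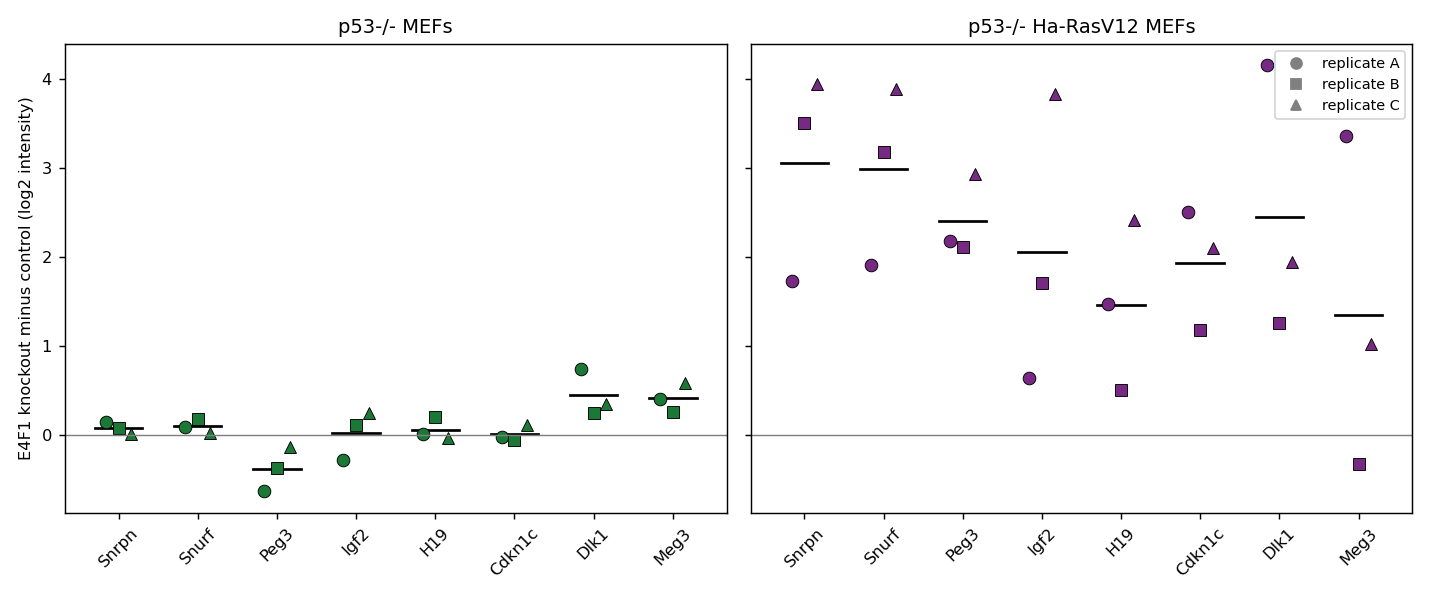
E4F1 knockout minus control (vertical axis, log2 intensity) for each of the 8 genes in p53-/- MEFs (left) and Ha-RasV12 MEFs (right), with 1 point per replicate and a line at the mean. Values lie between -0.63 and 0.74 in p53-/- cells, and from -0.32 to 4.15 in Ha-RasV12 cells, where the single negative value is Meg3 in replicate B.

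Array by array, the Ha-RasV12 difference was positive on 6 of 6 arrays for each gene except Meg3, which was higher on 4 of 6. In each background the 6 arrays are dye-swapped pairs of 3 replicates, so array counts add no further replicates. Over the genes, the median difference was 2.23 in Ha-RasV12 cells and 0.07 in p53-/- cells, against medians of -0.01 and -0.00 over all 42729 genes and transcripts. In Ha-RasV12 cells 5 of the 8 genes had knockout replicates above all controls, as had 3.49% of all genes and transcripts. Nothing is read from these counts, since this contrast chose the genes.

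Probes of a gene mostly moved together. The authors' deposited limma table for Ha-RasV12 cells holds 37 of the 48 probes, all higher in knockout cells, where 2.16% of all tested probes are listed as higher. Probe differences ran from 2.85 to 3.19 for Snrpn, 2.87 to 3.09 for Snurf, 1.28 to 1.61 for H19, 1.30 to 2.42 for Cdkn1c and 2.26 to 2.82 for Dlk1. For Peg3 they ran from 1.35 to 3.46. For Igf2, 1 of 6 probes stood apart at 0.29 ± 0.34 and was not listed, while the others ran from 2.09 to 3.18. Meg3 had 2 of 12 probes listed, and its probe differences ran from 0.19 to 1.87. At the edge of that table, a Meg3 probe with a difference of 1.78 and an adjusted p of 0.0395 in the authors' deposited table was inside, and one with 1.67 was outside. In p53-/- cells the authors' deposited limma table holds 0 of the 48 probes. Their wider SAM list (named 5%) holds 5 Meg3 probes (log2 0.53 to 0.69, q 0.0949 to 0.127 in the authors' deposited table), against 0.275% of all probes listed there as higher. That list reaches q values of 0.151.

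**Figure D3:**
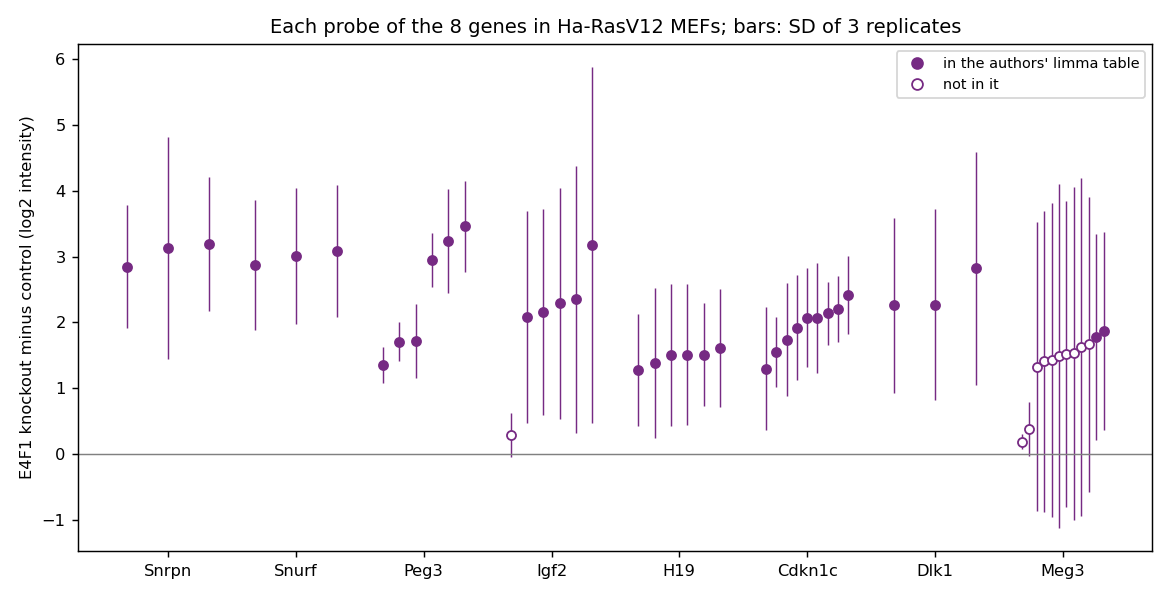
E4F1 knockout minus control in Ha-RasV12 MEFs (vertical axis, log2 intensity) for each of the 48 probes, grouped by gene, with SD over 3 replicates. Filled points are in the authors' deposited limma table, and all 48 means lie above 0, from 0.19 to 3.46.

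Ha-RasV12 cells were then set beside p53-/- cells. The Ha-RasV12 samples of both genotypes chose the genes, so that these values are a description and no p is given for the 8 genes. The backgrounds lay on different arrays, so that background and array set cannot be told apart, and the median of all genes and transcripts was itself shifted by -0.15. The mean of knockout and control cells, Ha-RasV12 minus p53-/-, was -1.46 ± 0.22 for Snrpn, -1.45 ± 0.18 for Snurf, -1.73 ± 0.27 for Peg3 and -3.04 ± 0.80 for Igf2 (SE from limma). It was -1.55 ± 0.44 for H19, -0.17 ± 0.46 for Cdkn1c, -0.35 ± 0.21 for Meg3 and 1.19 ± 0.42 for Dlk1. Limma called 4 of the 8 genes and 11 of the 48 probes lower, where 4.83% of all genes and transcripts and 2.86% of all probes were called lower. Nothing is read from these counts. The Ha-RasV12 controls spread more widely than the knockout cells for Snrpn, with an SD of 0.14 in knockout cells and 1.05 in controls.

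In control cells, Ha-RasV12 minus p53-/- was -2.95 for Snrpn (7.74-fold lower), -2.89 for Snurf (7.43-fold lower) and -3.12 for Peg3 (8.67-fold lower). It was -4.05 for Igf2 (16.6-fold lower) and -2.25 for H19 (4.75-fold lower), with 95% intervals of -6.44 to -1.67 and -3.53 to -0.96. The intervals here and for knockout cells below are unadjusted and take no account of the choice of genes. Whether an interval holds 0 is therefore no test. Cdkn1c differed by -1.13 (-2.44 to 0.19), Meg3 by -0.82 (-1.87 to 0.23) and Dlk1 by 0.18 (-1.19 to 1.56). For Snrpn, Snurf, Peg3, Igf2 and H19 all Ha-RasV12 controls lay below all p53-/- controls, as for 19.3% of all genes and transcripts. Limma called 4 of 8 genes and 17 of 48 probes lower, where 3.68% of all genes and transcripts and 2.71% of all probes were called lower. Choosing genes with Ha-RasV12 controls below the knockout cells favours this direction, and nothing is read from these counts.

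**Figure D4:**
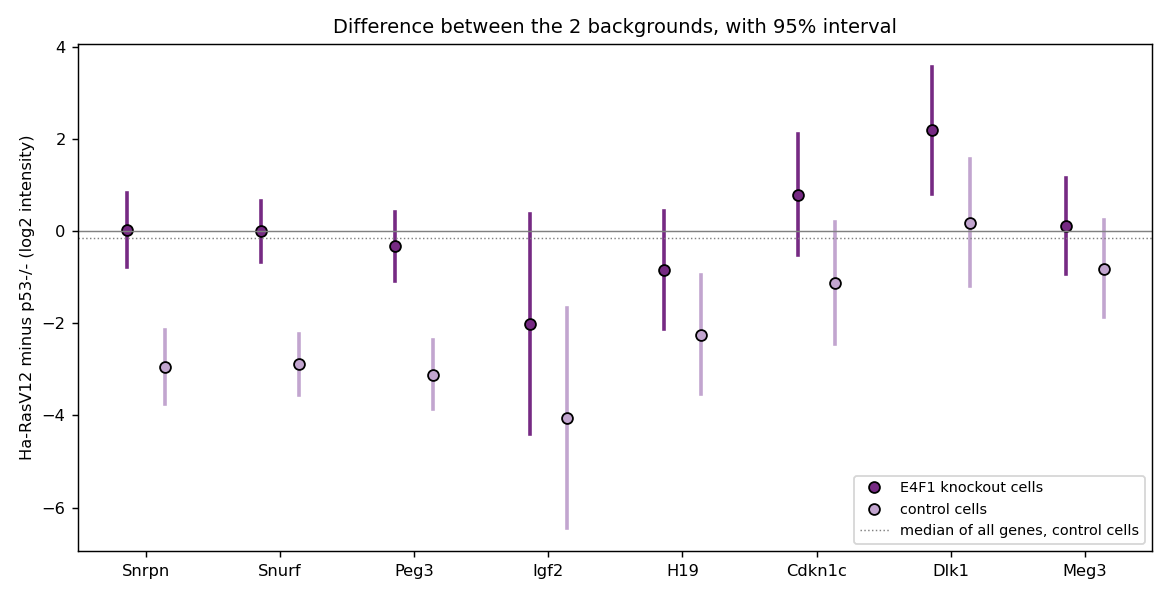
Ha-RasV12 minus p53-/- (vertical axis, log2 intensity) in E4F1 knockout cells and in control cells for each gene. Bars are unadjusted 95% intervals from limma, which are no test of these chosen genes. A dotted line marks the median of all genes in control cells (-0.14). Snrpn, Snurf and Peg3 lie near 0 in knockout cells and at -2.95, -2.89 and -3.12 in control cells.

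In knockout cells, a comparison added after seeing the data, Ha-RasV12 minus p53-/- was 0.03 for Snrpn (95% interval -0.78 to 0.83), -0.00 for Snurf (-0.66 to 0.65) and -0.33 for Peg3 (-1.08 to 0.41). For Igf2 it was -2.02 (-4.41 to 0.36) and for H19 -0.85 (-2.13 to 0.44), both wide intervals. Cdkn1c differed by 0.79 (-0.52 to 2.11), Meg3 by 0.11 (-0.94 to 1.16) and Dlk1 by 2.19 (0.81 to 3.56). Dlk1 stood at 11.98, 10.98 and 11.70 in Ha-RasV12 knockout cells, above all p53-/- knockout replicates (10.74, 8.58 and 8.77). Limma called 5.21% of all genes and transcripts either way and 0 of the 8 (1 with an unadjusted p under 0.05), and nothing is read from this count. These knockout samples too chose the genes, and the gap between the knockout and the control values restates the knockout difference.

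Where replicates stood apart, they did so for several of these genes at once. In p53-/- cells replicate A was above B and C by more than 1 in both genotypes for Igf2, H19, Cdkn1c and Dlk1, as it was for 0.452% of all genes and transcripts. The gap from the mean of B and C was 1.98 in knockout and 2.44 in control cells for Igf2, 1.54 and 1.61 for H19, 2.09 and 2.14 for Cdkn1c, and 2.07 and 1.63 for Dlk1. For Snrpn and Snurf it was between 0.25 and 0.36. Ha-RasV12 control replicate A was above the mean of B and C for Igf2 (3.95), Snrpn (1.80), Peg3 (1.24), H19 (1.09) and Snurf (0.89), and below it for Meg3 (-2.03), Dlk1 (-1.91) and Cdkn1c (-0.87). Over the 12 averaged values, Igf2 and H19 followed each other (Pearson r 0.96), as did Snrpn and Peg3 (0.95), while Dlk1 followed Cdkn1c (0.81) more than Igf2 (-0.03). These values share arrays and groups, and the correlations are descriptions.

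Most named genes can be named only because the authors listed them for a knockout difference, and among these the genes of chromosome 7, which holds 6 of the 8, stood low in some Ha-RasV12 controls. Over 229 named chromosome 7 genes other than the 8, with signal above the median probe, the median difference from the mean of p53-/- controls was 0.18, -0.02 and -0.25 in Ha-RasV12 knockout replicates A, B and C, against -0.13, -0.64 and -0.76 in Ha-RasV12 controls. The X stood at -0.49 and -0.64 in control replicates B and C, and chromosome 12 at 0.16, 0.11 and -0.07 in controls A, B and C. Of 340 named chromosome 7 genes limma called 46 higher and 1 lower in Ha-RasV12 knockout cells. On chromosomes other than 7 and 12 it called 374 higher and 276 lower of 3806 genes. The X among these was also one-sided. Above the median signal, it had 54 higher and 2 lower of 203 named genes, against 46 and 1 of 229 on chromosome 7. Chromosome 18 had 17 higher and 2 lower of 99. Naming by RefSeq accession gave other values. It was used only for transcripts in none of the authors' lists, so it favours genes with no knockout difference and medians near 0. Of the genes at any signal that could be named by a RefSeq accession, 104 on chromosome 7 had a median knockout difference of -0.02 in Ha-RasV12 cells, against -0.01 over 663 on chromosomes other than 7 and 12, and their medians between Ha-RasV12 and p53-/- controls were -0.18 and -0.16. Of 12 such chromosome 7 genes above the median signal and in no deposited table, the median was -0.19, -0.25 and -0.26 in Ha-RasV12 knockout cells, against 0.12, -0.31 and -0.38 in controls. Chromosome 1 (11 genes) stood lower, at -0.36 and -0.44 in controls B and C. The part of the chromosome in the imprinted genes' values was not tested.

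**Figure D5:**
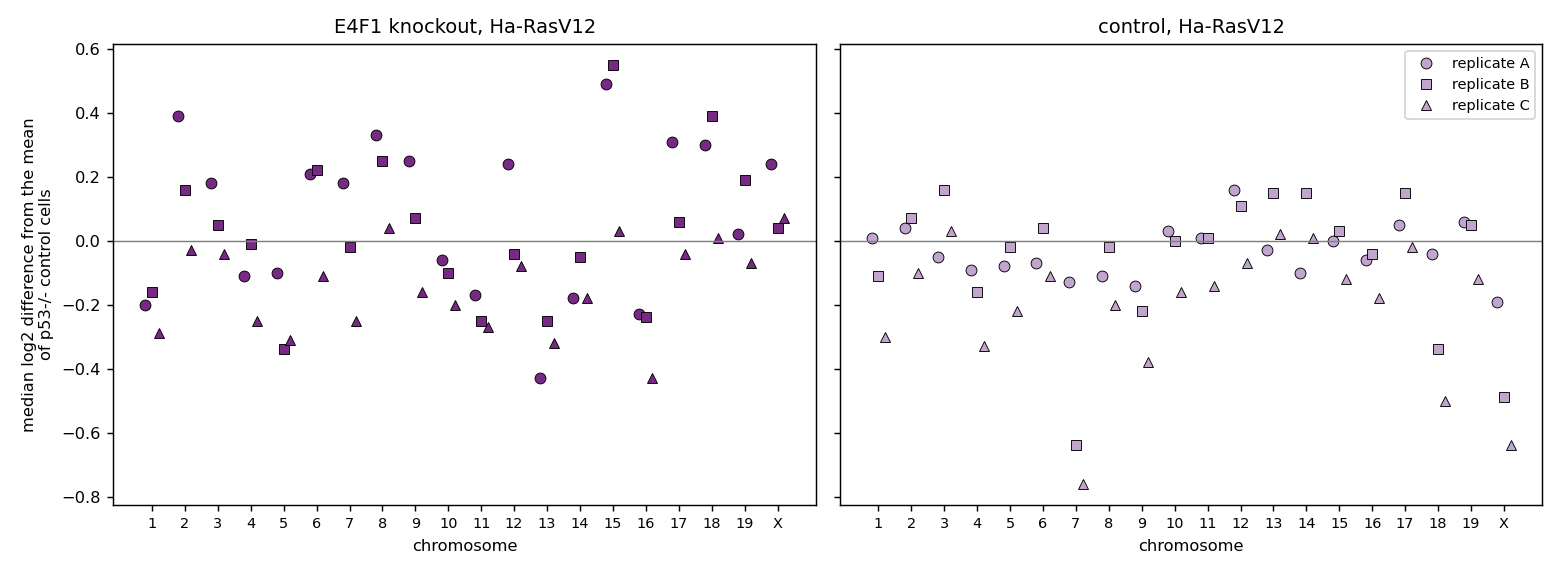
Median log2 difference from the mean of p53-/- controls (vertical axis) over named genes with signal above the median probe, by chromosome, in Ha-RasV12 knockout (left) and control cells (right), with 1 point per replicate. The genes were named mostly through the authors' lists. Chromosome 7 lies at -0.02 and -0.25 in knockout replicates B and C and at -0.64 and -0.76 in control replicates B and C. The X lies at -0.49 and -0.64 in control replicates B and C.

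Within 500 kb of the 8 genes, 14 further genes could be named. Limma called 1 of them in the Ha-RasV12 knockout contrast and 0 in the p53-/- knockout contrast. Over all genes and transcripts it called 1.74% and 0.00936%. Several of the 14, the called gene among them, could be named only because the authors listed them for a knockout difference, which favours a call. The called gene was Mrpl23, a mitochondrial ribosomal protein gene near H19, at 0.95 ± 0.35 (adjusted p = 0.0315). Snhg14, the non-coding host transcript that runs on from Snrpn, was 1.96 ± 1.18 higher (0.79, 1.93 and 3.15, adjusted p = 0.0545) and did not pass. The Igf2 antisense transcript Igf2os differed by 0.16 (adjusted p = 0.779). Near Peg3, Zfp954 differed by 0.56 (adjusted p = 0.131) and Zfp418 by 0.39 (adjusted p = 0.149). Near Cdkn1c, the decoy receptor genes Tnfrsf22 (0.91, adjusted p = 0.0801) and Tnfrsf23 (0.87, adjusted p = 0.307) did not pass. Mirg, a maternally expressed non-coding gene downstream of Meg3, differed by 0.46 (adjusted p = 0.348), with 1.01 in replicate A, -0.13 in B and 0.51 in C.

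Of 61 other imprinted genes 17 could be named, 4 of them through a RefSeq accession alone, so that the counts lean toward genes the authors listed. In Ha-RasV12 cells limma called 2 higher and 2 lower in knockout cells, with a median of 0.29. Mkrn3, a paternally expressed ubiquitin ligase gene of the Prader-Willi region, rose by 0.88 ± 0.29 (adjusted p = 0.0199), with 13 of 18 probe values above background in knockout cells and 3 of 18 in controls. The proteoglycan gene Dcn rose by 2.82 ± 1.57 (adjusted p = 0.0437). Pon3 fell by 1.29 on the log2 scale (SD 0.49, adjusted p = 0.0217) and Pon2 fell by 0.88 (SD 0.40, adjusted p = 0.0431), both genes of the paraoxonase family. Mest, a paternally expressed hydrolase gene, gave 0.49, -3.65 and -2.58 in replicates A, B and C and did not pass (adjusted p = 0.244). In p53-/- cells 0 of the 17 were called by limma, 1 had an unadjusted p under 0.05, and the authors' limma list holds 2. Between Ha-RasV12 and p53-/- controls, Slc38a4, an amino acid transporter gene, was lower by 2.09 (adjusted p = 0.0344) and the other 16 did not pass. Its Ha-RasV12 values were 10.70, 10.57 and 11.25 in knockout cells, against 7.93, 10.52 and 10.38 in controls, so that replicate A stood low as it did for Dlk1 and Meg3.

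Among 25 regulators of imprinting, 6 could be named and limma called 0 in either knockout contrast (4 with an unadjusted p under 0.05 in Ha-RasV12 cells and 0 in p53-/- cells). Trim28, the corepressor that ZFP57 recruits to imprints, differed by 0.54 ± 0.49 (adjusted p = 0.192) in Ha-RasV12 cells, and Cbx5, a heterochromatin protein gene, by 0.42 ± 0.43 (adjusted p = 0.275). Of the insulin-like growth factor axis around Igf2, 8 of 18 genes could be named. Igfbp7, a secreted binding protein gene, rose in Ha-RasV12 knockout cells by 3.01 ± 0.34 (adjusted p = 0.000505), at 12.03, 12.14 and 12.06 against 8.64, 9.40 and 9.17 in controls. The other 7 did not pass, and 0 passed in p53-/- cells (5 with an unadjusted p under 0.05). In Ha-RasV12 controls 4 of the 8 were lower than in p53-/- controls: Igfbp7 (-5.04), Igfbp2 (-3.94), Igfbp5 (-3.62) and Pappa, a protease that cleaves IGF binding proteins (-2.42) (adjusted p = 2.33e-08, 0.0127, 0.000212 and 0.000177). Pappa had 0 of 18 probe values above background in either Ha-RasV12 group.

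Of the Notch pathway, to which Dlk1 is related, 3 of 17 genes could be named. Rbpj, its nuclear effector, rose by 1.34 ± 0.55 (adjusted p = 0.0217) in Ha-RasV12 knockout cells, while the target Hes1 (-0.62, adjusted p = 0.172) and the ligand Jag1 (0.03, adjusted p = 0.977) did not pass. Of a list of cell cycle inhibitors, G1 cyclins and G1 kinases set beside Cdkn1c, 3 of 14 could be named. Cdkn1a, which encodes p21, fell by 1.16 (SD 0.34, adjusted p = 0.0122) in Ha-RasV12 knockout cells, as did Cdk6, a G1 kinase gene, by 0.95 (SD 0.39, adjusted p = 0.0286), opposite in sign to Cdkn1c. The cyclin gene Ccnd1 did not pass (0.81, adjusted p = 0.215). Of 12 spliceosome protein genes set beside Snrpn, only Snrpa, which is not an Sm core gene, could be named (0.47, adjusted p = 0.262).

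Some markers of cell types differed in Ha-RasV12 cells, while others did not pass or pointed the other way. Most could be named only through the authors' lists, which favours calls in the knockout contrasts. Of 10 neuron markers 2 could be named, with mean levels of 7.57 to 8.62 in Ha-RasV12 knockout cells, 7.81 to 9.99 in Ha-RasV12 controls, 6.37 to 6.96 in p53-/- knockout cells and 6.36 to 6.91 in p53-/- controls. Map2 rose by 0.89 (adjusted p = 0.0458) in Ha-RasV12 knockout cells, while Nefl, at 12.22 in Ha-RasV12 control A and 8.08 and 8.13 in B and C, did not pass (-1.75, adjusted p = 0.292). Of 7 named fibroblast markers limma called 4 lower in Ha-RasV12 than in p53-/- controls, among them Col1a1 (-3.24, adjusted p = 4.91e-05). It called 3.68% of all genes and transcripts lower. S100a4 was higher there (2.18, adjusted p = 0.021), and Col3a1 (-0.54) and Pdgfra (0.56) did not pass. In Ha-RasV12 knockout cells Fn1 rose by 1.42 (adjusted p = 0.0189). S100a4 and Col3a1 fell by 4.37 and 1.79 in those cells (adjusted p = 0.0164 and 0.0185). Of the named markers of skeletal muscle, cartilage, adipocytes and epithelium, Acta1 (1.59), Sox9 (1.5), Pparg (1.20) and Krt7 (0.90) rose in Ha-RasV12 knockout cells (adjusted p = 0.00678, 0.00232, 0.047 and 0.013). The other named members of these lists did not pass, with differences of 0.05 for Myh3 and -0.06 for Des (muscle), -0.95 for Fabp4 and 1.65 for Lpl (adipocytes), and -1.53 for Krt19 and 0.60 for Epcam (epithelium). The macrophage markers Ptprc and Cd53 did not pass, and no endothelial or liver marker could be named. The part of these genes' cells in the imprinted genes' values was not tested.

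The genes whose pattern over the 12 averaged samples was most like each member (highest Pearson r among 3214 named genes above the median signal) were Cndp2, Ethe1 and Fbxo31 for Snrpn (r 0.95 to 0.96), Cndp2, Cxcl12 and Pstk for Snurf (0.95 to 0.97), and Ydjc, Mmp2 and Fah for Peg3 (0.96 to 0.97). For Igf2 they included Fbxo44 and Rab33a (0.94 and 0.93), and for H19 Phactr2, Cyp7b1 and Bckdhb (0.95 to 0.98). For Cdkn1c they were Acp5, Sorbs2 and Mogat2 (0.88 to 0.93), for Dlk1 Plac1, Osbpl1a and Matn2 (0.92 to 0.93), and for Meg3 Bdh2, Acat1 and Raet1e (0.92 to 0.97). Cxcl12, a chemokine gene, differed by 4.26 between Ha-RasV12 knockout and control cells and by -3.90 between Ha-RasV12 and p53-/- controls, and Mmp2, a matrix protease gene, by 2.51 and -2.85. Most named genes were listed by the authors for a knockout difference, and such a difference also chose the members. This favours high r values, and nothing is read from them.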

How the data were processed

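RNA of 24 samples was measured on 12 two-colour arrays. The authors deposited 1 table of normalised intensities per channel, with the method not given in the sources used here, and 6 tables of knockout against control. Per the file headers these come from limma and SAM, and they hold log2 fold changes, statistics given as scores, p-values and q-values as deposited by the authors. The differences of log2 intensities equalled the deposited log2 fold changes to within 4.8e-06. The lists named for 1% and 5% reach q values of 0.0661 to 0.151. The members and gene lists were chosen with earlier results of these data known.

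Probes were named where a deposited table names their transcript, or by RefSeq accession (GRCm38.p6), which gave 4414 genes (747 by accession alone). This favours listed genes. Log2 values were averaged over dye swaps, then over a gene's probes, and 42729 genes or unnamed transcripts were fitted with limma 3.58.1 (R 4.3.3). Knockout contrasts used differences within each replicate, because the labels place both samples on the same arrays (4 residual degrees of freedom, both backgrounds in 1 fit). Same-letter samples deviated together in p53-/- cells (r 0.70, 0.64 and 0.68) and less in Ha-RasV12 cells (0.24, -0.19 and 0.45). Backgrounds were compared over 3 against 3 samples. Benjamini-Hochberg adjusted p under 0.05 was called. Named genes were the members, E4f1, Trp53, up to 4 called genes per list and comparison by size (or the brightest 2), neighbours within 500 kb, and the 3 most alike genes per member, of which 1 is not reported here. Further genes were named after their values were seen, and so were the comparison in knockout cells and the chromosome medians. On simulated data for the Ha-RasV12 knockout contrast over 42729 genes, 67.0% of changes of 1 and 94.0% of changes of 2 (log2) were called. The simulated noise was independent, with 1 spread per gene for both backgrounds. In the real data the members' knockout differences spread more widely in Ha-RasV12 cells (for Snrpn SD 1.17 against 0.07). The shares called may therefore not hold for the real contrast. The number of arrays limits the precision. Alternatives were other scalings, probe choices, dyes, blocks, left-out replicates and the authors' lists. Python 3.11.15, pandas 2.3.3 and matplotlib 3.10.9 were used.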

Additional observations from a re-analysis of the deposited data

Results flagged for a closer look

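Peg3 was lower in knockout cells in all 3 replicates of p53-/- MEFs (-0.38 on average) and higher in all 3 replicates of Ha-RasV12 MEFs (2.41 on average). The knockout effect in Ha-RasV12 cells minus that in p53-/- cells was 2.78 on the log2 scale. This difference was not tested, because Peg3 was chosen for its value in Ha-RasV12 cells.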

How the results depend on the processing

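Over all genes, 743 were called in the Ha-RasV12 knockout contrast. This became 285 with no replicate block, 4400 with arrays as separate differences, 0 with Ha-RasV12 fitted alone (3165 with an unadjusted p under 0.05), and 0 to 1018 with a replicate left out (209 without B, 0 without C). The authors' lists hold 1846 (limma), 1714 and 3397 (SAM). The 4 calls in p53-/- cells became 193 with that background alone, 70 with separate arrays, 0 with any replicate left out (372 to 1041 unadjusted), and 240, 241 and 476 in the authors' lists; with no replicate block there were 5. Between Ha-RasV12 and p53-/- controls, 2069 (496 higher, 1573 lower) became 229 to 3815 without a replicate, and the split turned to 1135 higher and 1390 lower with quantile normalization and 1241 and 1069 with median centring. For the mean of both genotypes, 2889 (826 and 2063) became 1744 with the brightest probe and 964 to 5754 without a replicate, with splits of 1736 and 1761 (quantile) and 2006 and 1295 (median). In knockout cells 2227 (588 and 1639) became 440 to 2022 without a replicate, with splits of 1415 and 1397 (quantile) and 1636 and 952 (median). A replicate block across backgrounds, whose letters share only a name (r of controls 0.05, -0.08 and 0.13), gave 2635, 3796 and 2952. Of the members' 112 values each, 108 in the Ha-RasV12 and 105 in the p53-/- knockout contrast moved by less than 1 SD of that gene's replicates. These counts include settings that cannot move a mean in this balanced design (no replicate block, a background alone, separate arrays). None changed sign in Ha-RasV12 cells. Peg3 in Ha-RasV12 cells ran from 1.35 to 3.46 with the probe. Meg3 there fell from 1.35 to 0.35 without replicate A and to 0.19 with its lowest probe. Igf2 there fell from 2.06 to 1.18 without replicate C. These falls of Meg3 and Igf2 counted as less than 1 SD, since the replicates of both genes spread widely (SD 1.86 and 1.62). Between backgrounds, the sign turned for Dlk1 in controls (-0.42 to 1.36 without a replicate), for Cdkn1c in the mean (0.00 with median centring, -0.61 to 0.68 without a replicate), and in knockout cells for Snrpn (-0.07 to 0.21), Meg3 (-0.13 to 0.40) and Snurf (-0.26 to 0.35 without a replicate, 0.05 with quantile normalization and 0.16 with median centring). Of the members' 64 values in each comparison between backgrounds, 9 in controls lost a call of the main fit, mostly for H19, and 3 gained one. In the mean of both genotypes 9 lost a call, mostly for Igf2, and 4 gained one. The cause of these changes was not tested.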
